A study of Mus musculus with 8 samples.

Results

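Methylation was examined at 9 genes whose products mark mouse blood stem cells, of 20665 autosomal protein-coding genes in the RefSeq table of the GRCm38.p6 assembly. They were Kit, Ly6a and Slamf1, which encode the sort markers c-Kit, Sca-1 and CD150 that the sorted cells carry, Cd48 and Flt3, which encode the markers CD48 and Flk2 that the sort leaves out, and Cd34, Procr, Tek and Vwf, which are not part of the gate. The genes were listed by name, and the rule used no methylation value. Every CpG from 5000 bp before to 5000 bp after each gene was taken, with reads of both strands added, and was kept where at least 3 mice of each group had 10 or more reads. The rule kept 352 CpGs out of 1840 that any mouse had at these genes, among 1278034 kept CpGs of 5202765 listed on the autosomes.

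The series profiled DNA methylation by enhanced reduced representation bisulfite sequencing, which reads CpG-rich restriction fragments after a bisulfite treatment by which unmethylated cytosines come to be read as thymine. The 4 knockout mice were C57BL/6 mice with loxP-flanked Atg12 alleles and Mx1-Cre, a recombinase driven by an interferon-inducible promoter that is active in many tissues besides blood. The 4 control mice were C57BL/6 mice that the series' design text describes as carrying the same loxP-flanked alleles without Cre, while their genotype label reads wild type. Knockouts and controls alike were injected at 4 weeks of age with poly(I:C), an inducer of interferon, and 2 to 3 months later stem cells negative for lineage markers, Flk2 and CD48 and positive for c-Kit, Sca-1 and CD150 were sorted from the marrow of each mouse and not cultured.

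Kit and Flt3 are receptor tyrosine kinases, for stem cell factor and for Flt3 ligand; Kit sustains stem cells and early progenitors, while Flt3 appears on multipotent progenitors that have lost long-term self-renewal. Slamf1 and Cd48 belong to the SLAM family of immune cell receptors, and the loss of CD150 together with the gain of CD48 marks the step out of the stem cell compartment. In blood cells as elsewhere, promoters dense in CpGs are usually unmethylated whether or not the gene is expressed, whereas gene bodies are usually methylated.

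The 250 bases before the transcription starts of the gate genes, shown because the assay reads CpGs and the gate genes differ in how many they hold, are from RefSeq on GRCm38.p6, printed 5′ to 3′ on the gene's own strand with each CG in capitals. They lie at chr5:75574737-75574986 (plus strand) for Kit, chr1:171766882-171767131 (plus strand) for Slamf1, chr5:147400490-147400739 (minus strand) for Flt3 and chr1:171681742-171681991 (plus strand) for Cd48.
Kit: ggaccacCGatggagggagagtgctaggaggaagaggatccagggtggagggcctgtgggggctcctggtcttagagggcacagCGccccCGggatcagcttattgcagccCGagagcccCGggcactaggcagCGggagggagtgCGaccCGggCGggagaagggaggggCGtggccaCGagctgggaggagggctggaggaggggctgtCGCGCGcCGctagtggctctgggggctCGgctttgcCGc
Slamf1: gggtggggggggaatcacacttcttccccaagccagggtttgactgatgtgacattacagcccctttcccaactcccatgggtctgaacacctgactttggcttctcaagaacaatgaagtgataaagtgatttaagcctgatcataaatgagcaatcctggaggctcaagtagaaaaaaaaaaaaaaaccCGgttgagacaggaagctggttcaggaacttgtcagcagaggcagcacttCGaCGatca
Flt3: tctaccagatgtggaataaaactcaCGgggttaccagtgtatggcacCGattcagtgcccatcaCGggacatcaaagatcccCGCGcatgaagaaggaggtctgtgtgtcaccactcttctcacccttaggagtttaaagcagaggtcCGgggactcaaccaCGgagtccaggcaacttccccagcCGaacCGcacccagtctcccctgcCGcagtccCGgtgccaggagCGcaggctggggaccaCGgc
Cd48: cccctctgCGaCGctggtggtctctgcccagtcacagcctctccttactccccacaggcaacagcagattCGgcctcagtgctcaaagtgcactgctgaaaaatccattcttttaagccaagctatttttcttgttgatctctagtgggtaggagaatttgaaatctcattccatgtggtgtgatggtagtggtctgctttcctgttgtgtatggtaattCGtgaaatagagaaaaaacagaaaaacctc

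The motif searched was CG, which reads the same on both strands. The Kit stretch held 17 of them and the Flt3 stretch 13, against 3 for Slamf1 and 4 for Cd48. Over the 300 bases that end 50 bases after the start, Kit had 20 CpGs, a number reached by 27.4% of the 25748 RefSeq promoters of that length, and Flt3 had 18, reached by 30.8%. Cd48 and Cd34 had 7 each, reached by 52.8% of promoters, Procr had 13, reached by 39.2%, Slamf1 had 4, reached by 68.7%, and Tek had 3, reached by 76.5%. Kit and Flt3, a marker present and one absent, were the richest in promoter CpGs of the 4 gate genes shown; Cd48 was at the median of all promoters, which is 7, and Slamf1 was under it. Of the CpGs in the printed stretches, 6 of Kit and 8 of Flt3 were measured, and 0 of Slamf1 and of Cd48.

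Depth was similar between the groups but differed by mouse. The median coverage over the 1087161 CpGs that every mouse had was 212 to 293 reads in knockouts and 233 to 242 reads in controls, and the median over the kept CpGs of these genes was 95 to 177 reads in knockouts and 100.5 to 149.5 reads in controls. In every library, CpGs highly methylated in all 8 mice had a lower mean depth than CpGs nearly unmethylated in all 8 mice. The ratio was 0.435 to 0.637 in knockouts and 0.366 to 0.827 in controls, lowest in knockout 25 and control 34. These are different sites, so depth by site and depth by methylation cannot be told apart in this ratio. Listed cytosines on the Y chromosome numbered 7.9 to 9.01 per 10000 in knockouts and 1.15 to 1.83 per 10000 in controls, so that in all 8 mice genotype and Y chromosome content coincide and cannot be told apart. Those on the X chromosome were 1.832% to 1.933% of the listed cytosines in knockouts and 2.423% to 2.535% in controls. A difference of sex between the groups therefore cannot be told apart from genotype in any comparison made here. Methylation levels do not read the Atg12 deletion itself, and the expression of the surface markers is not read by this assay.

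Coverage decided which markers could be described. Vwf, which encodes the adhesive protein von Willebrand factor of platelets and endothelium, had 116 kept CpGs, Kit had 100 and Flt3 had 69. Cd34, a sialomucin of progenitors and endothelium, had 22; Procr, the endothelial protein C receptor, and Cd48 had 16 each; Slamf1 had 7 and Tek, the angiopoietin receptor Tie2, had 6. Ly6a, which encodes the GPI-anchored protein Sca-1, had 0 kept CpGs. Only 4 of its CpGs were listed, in 1 or 2 mice each, with 11 to 21 reads, and they read 0% or 100% in each mouse that had them. Sca-1 therefore stays out of every comparison made here, and the marker genes present on the sorted cells are represented by Kit and Slamf1.

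The kept CpGs were mostly at the ends of the scale. Of the 352, 144 had a mean level under 5% and 111 over 95%, which left 97 in the range of 5 to 95% that was tested. Low CpGs lay in stretches: 48 of the 100 CpGs of Kit, 47 of the 69 of Flt3, 19 of the 22 of Cd34 and 4 of the 16 of Procr were under 5%, as were 24 of the 116 of Vwf. Slamf1 and Cd48 had 1 such CpG each and Tek had 0.

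**Figure D1:**
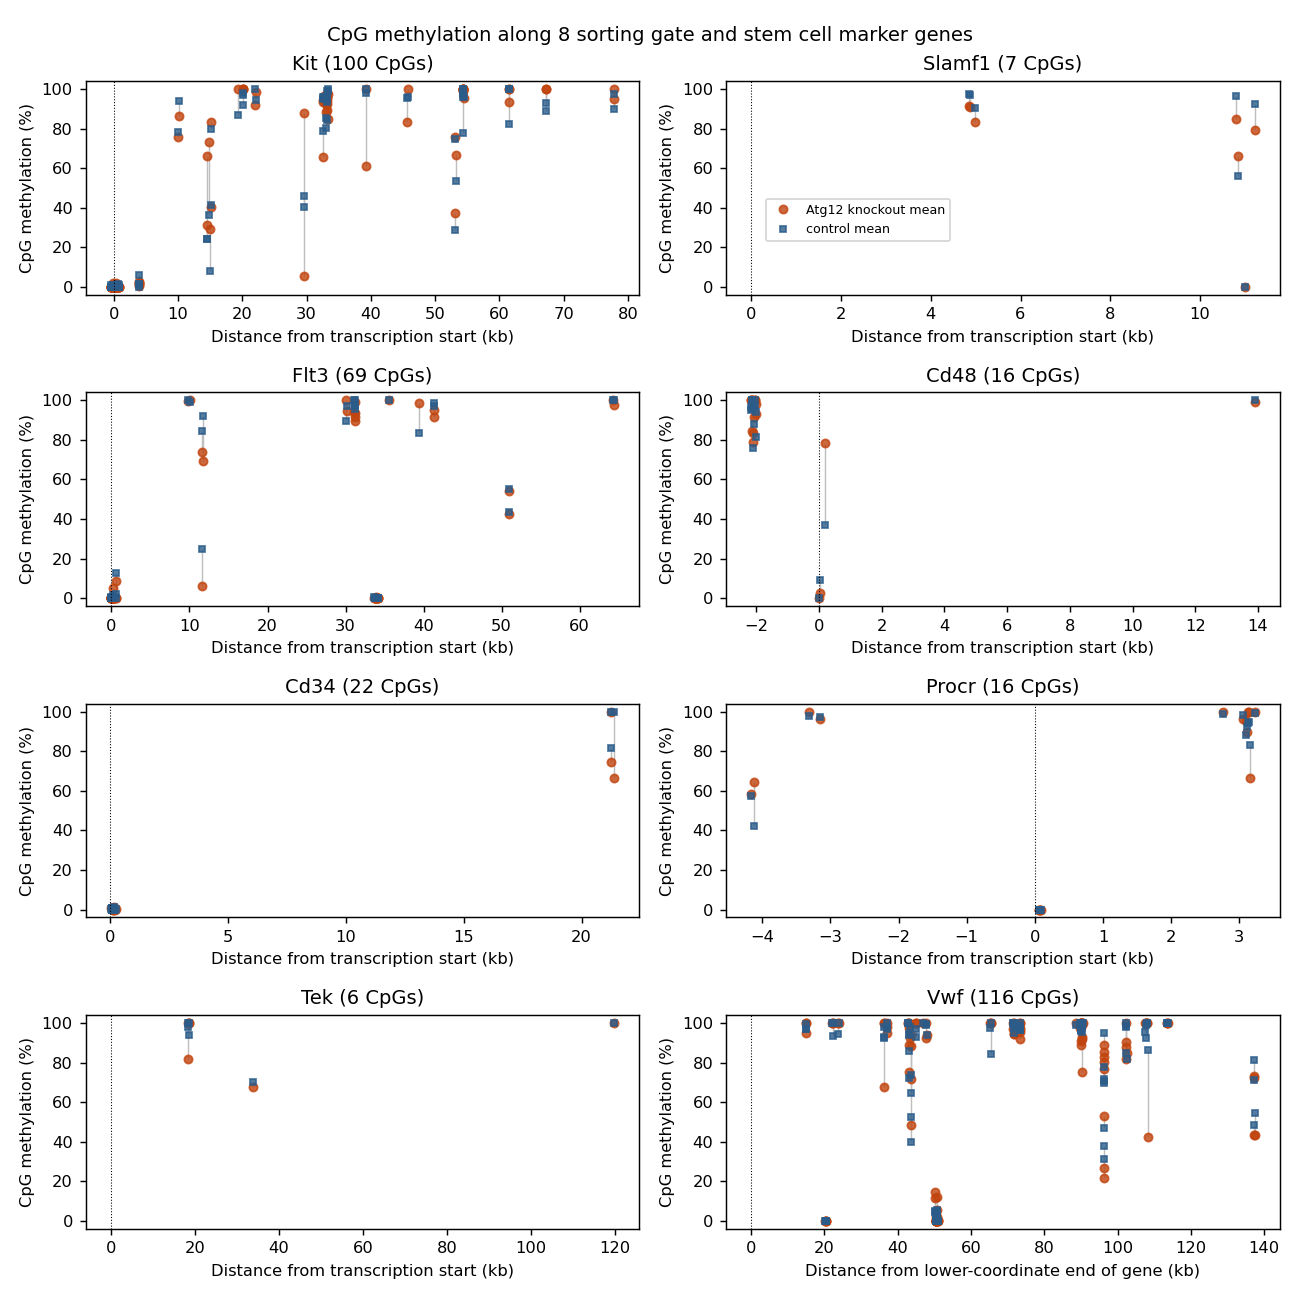
Mean methylation (%) of each kept CpG over the knockout mice (orange circles) and the control mice (blue squares), joined by a grey line, against distance in kb from the transcription start, or from the lower-coordinate end of Vwf, for which no start was given. Kit, Flt3, Cd34 and Procr have CpGs near 0% at the start, Slamf1 and Tek have no CpG there, and most other CpGs lie near 100% in both groups.

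The starts of Kit and Flt3, a marker present on the sorted cells and one absent from them, were unmethylated alike. Within 1000 bp of the Kit start, the mean over 30 CpGs was 0.31%, 0%, 0.0421% and 0.0367% in knockout mice 25, 28, 45 and 46, against 0.219%, 0.248%, 0.00533% and 0.0909% in control mice 1, 34, 36 and 37. Within 1000 bp of the Flt3 start, the mean over 33 CpGs was 0.142%, 0.434%, 0.0542% and 0.21% in knockout mice 25, 28, 45 and 46, against 0.0432%, 0.0897%, 0.164% and 0.274% in control mice 1, 34, 36 and 37. All 16 values were under 0.5%, the groups overlapped at both genes, and Flt3 was above Kit in 5 of the 8 mice.

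Neither start differed between genotypes beyond the spread of the mice. Kit averaged 0.0973 ± 0.143% in knockouts and 0.141 ± 0.113% in controls (SD, n = 4 each), the difference being -0.0436 percentage points (95% interval -0.247 to 0.305; exact two-sided permutation test, p = 0.743; 5419 to 8010 reads per mouse). Flt3 averaged 0.21 ± 0.162% in knockouts and 0.143 ± 0.101% in controls (SD, n = 4 each), a difference of 0.0671 points with a 95% interval of -0.22 to 0.39 (exact two-sided permutation test, p = 0.571, on 8496 to 13171 reads per mouse). With 4 against 4 mice the smallest p this test can give is 0.0286. The read numbers of both starts are summed over CpGs, so that 1 read can count at several CpGs. The signs turned under other ways of averaging, the Kit difference being 0.0127 points with reads summed over CpGs and the Flt3 difference -0.0811 points over all kept CpGs. Such levels are common: of 13427 measured gene starts, 67.3% were under 1%, and the levels of Kit and Flt3 were reached or undercut by 10.6% and 28.9% of them. The long noncoding RNA gene Gm26597 spans the Flt3 start in the RefSeq table, so these CpGs lie in that gene too.

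Both low stretches ran past the start itself. At Kit, 43 consecutive kept CpGs under 10%, with at most 500 bp between neighbours, ran from 451 bp before to 805 bp after the start, and 36 such CpGs ran from 101 bp before to 577 bp after the start of Flt3. Another short stretch of 5 CpGs inside Kit, 3952 to 4012 bp after the start, averaged 1.59 ± 1.24% in knockouts and 1.98 ± 1.48% in controls (SD, n = 4 each). Flt3 also had another one deep in its body: 13 CpGs over 457 bp, 33708 to 34164 bp after the start, averaged 0.0723 ± 0.0614% in knockouts and 0.0576 ± 0.0547% in controls (SD, n = 4 each). The highest mean of any single CpG in that stretch was 0.356%. It lies at chromosome 5, 147366325 to 147366781, where no RefSeq gene starts.

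Cd34 and Procr, which are outside the gate, had unmethylated starts as well. The 19 CpGs from 29 to 266 bp after the Cd34 start averaged 0.114%, 0.215%, 0.171% and 0.488% in knockout mice 25, 28, 45 and 46, against 0.0762%, 0.372%, 0.116% and 0.446% in control mice 1, 34, 36 and 37. The difference was -0.0057 points with a 95% interval of -0.331 to 0.411 (exact two-sided permutation test, p = 0.971), and the groups overlapped over nearly their whole ranges. The 4 CpGs from 58 to 88 bp after the Procr start read 0% in every mouse, on 72 to 483 reads summed over the CpGs. Taken as independent, these counts allow a level of up to 4.17% in the mouse with fewest reads and 0.621% in that with most. The 4 CpGs lie within 31 bp and can share reads. The fewest reads at each CpG were 18, so the limits are too low where reads are shared. These limits cover counting error only, and several reads can stem from 1 DNA molecule. The 95% intervals of the differences rest instead on the levels of the mice.

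The start of Cd48, the other marker that the sort leaves out, stood apart from the rest in level. Its 3 measured CpGs averaged 31.4%, 16.9%, 33.3% and 26.7% in knockout mice 25, 28, 45 and 46, against 10.2%, 12%, 17.4% and 22.1% in control mice 1, 34, 36 and 37. This was above Kit and Flt3 in all 8 mice, and 90.8% of measured gene starts were at or below it. Starts with as few CpGs varied widely: of 1066 gene starts with 5 to 9 promoter CpGs, 55.2% were under 5%, against 95% of 6036 with 20 or more. The RefSeq interval of Cd48 begins at 171681245, before the start used here at 171681992. The 3 Cd48 CpGs and the bases printed for Cd48 therefore lie inside that interval.

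At the Cd48 start the knockout mean was 27.1 ± 7.33% and the control mean 15.4 ± 5.37% (SD, n = 4 each), a difference of 11.7 points with a 95% interval of -5.13 to 23.1. The exact two-sided permutation test gave p = 0.0857, and the groups overlapped through knockout 28. The moderated quasi-binomial model of summed reads gave an adjusted p of 1. With reads summed over the CpGs in place of the unweighted mean, the difference was 1.64 points. In every mouse most of the level came from 1 CpG, 194 bp after the start at chromosome 1, 171682186, chosen after its values were seen. It read 83.9%, 50.8%, 100% and 80% in knockout mice 25, 28, 45 and 46, against 30.6%, 25.7%, 31.8% and 59.4% in control mice 1, 34, 36 and 37, on 22 to 74 reads per mouse. The groups overlapped through control 37, and the difference of 41.8 points gave an adjusted p of 0.768 in the moderated quasi-binomial model and p = 0.0571 in the exact permutation test. Of the other CpGs there, the one 10 bp after the start read 0% in all 8 mice. The one 45 bp after it read 10.3%, 0%, 0% and 0% in knockouts, against 0%, 10.4%, 20.3% and 6.82% in controls.

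**Figure D2:**
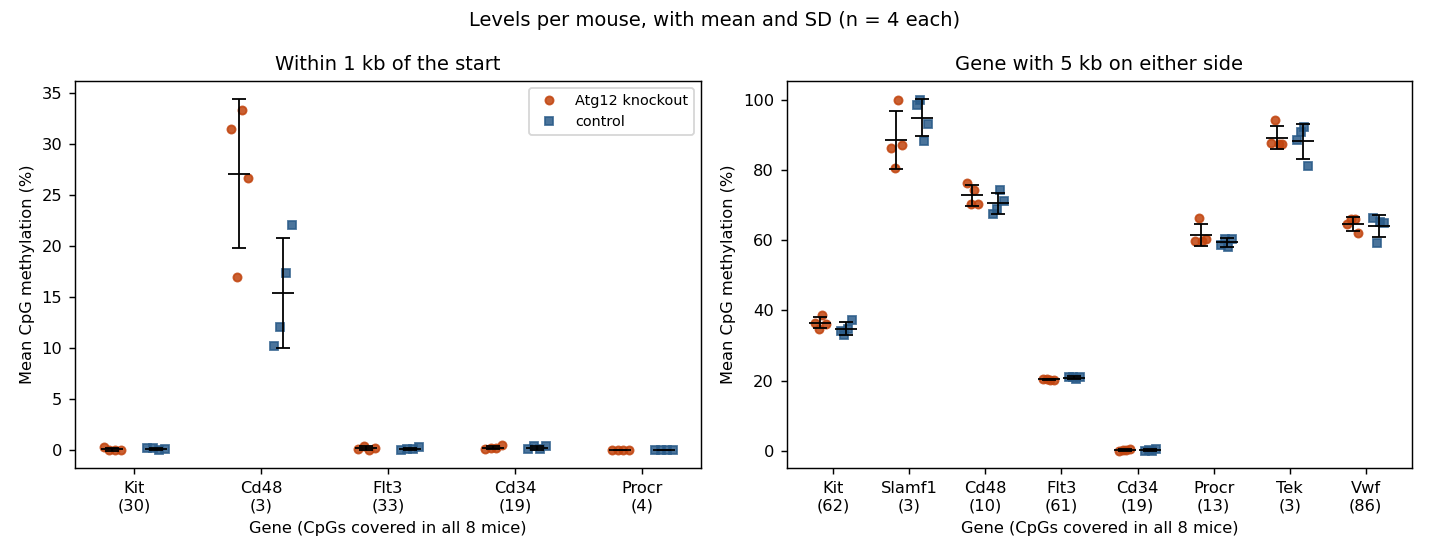
Mean methylation (%) per mouse within 1 kb of the transcription start (left panel) and over the whole gene with 5 kb on either side (right panel) in knockout (orange circles) and control mice (blue squares), with the mean and SD as bars and the number of CpGs under each name. Cd48 is the one start well above 0%, at 16.9% to 33.3% in knockouts and 10.2% to 22.1% in controls, and over whole genes the groups overlap at every gene.

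Over the CpGs read in all 8 mice in each gene and its flanks, the levels ranged from nearly full methylation at Slamf1 and Tek to nearly none at Cd34. Averaged over both groups, Slamf1 stood at 91.7%, Tek at 88.6%, Cd48 at 71.6%, Vwf at 64.3%, Procr at 60.5%, Kit at 35.7%, Flt3 at 20.6% and Cd34 at 0.25%. The ranges of the 8 mice overlapped between Slamf1 and Tek and between Vwf and Procr, and lay apart between the other neighbours in this order. For Cd34 the value holds the start only, because no CpG elsewhere in the gene was read in all 8 mice. For Slamf1 and Tek it holds 3 CpGs of the body each and none of the start or flanks. Of the Kit CpGs, 30 of 62 lay at the unmethylated start, as did 33 of 61 of Flt3. The order of the genes therefore depends on which CpGs were read. Among 16740 gene regions with a value, 93.3% were at or below Slamf1, 67.9% at or below Kit and 50.9% at or below Flt3.

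None of the marker regions passed the test between genotypes. In the moderated quasi-binomial model 0 of the 7 tested marker regions had an adjusted p under 0.05, each having an adjusted p of 1, and 0 of 12794 regions over all genes were called (0%). At an unadjusted p under 0.05 the count was 0 of 7 markers against 331 of all regions (2.59%). The groups overlapped at all 7, against 2.77% of all tested regions where they did not, and limma gave 0 calls over all genes. The 331 depended on single mice, being 3256 without control 34, 93 without control 36 and 2466 without both knockout 25 and control 34. The marker count in these settings is not given, so 0 of 7 against 2.59% cannot be read as a stable contrast. Kit averaged 36.6 ± 1.67% in knockouts and 34.8 ± 1.8% in controls over 62 CpGs (SD, n = 4 each), with a 95% interval of the difference of -2.42 to 5.9 points. For Vwf, with 86 CpGs at 64.6 ± 1.87% in knockouts and 63.9 ± 3.13% in controls (SD, n = 4 each), the interval was -4.33 to 6.72 points. The limits were wider where few CpGs were read, as at Tek, whose 3 CpGs averaged 89.1 ± 3.3% in knockouts and 88.1 ± 4.95% in controls (SD, n = 4 each), with an interval of -4.94 to 13 points.

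Slamf1, which encodes the CD150 on which the gate rests, had the widest range over the 8 mice, 19.6 points. Its 3 CpGs, 4847 to 4977 bp after the start, averaged 86.3%, 80.4%, 100% and 87.1% in knockout mice 25, 28, 45 and 46, against 98.4%, 100%, 88.2% and 93.1% in control mice 1, 34, 36 and 37. The groups overlapped, since knockout 45 tied with the highest control and control 36 was above only 3 of the knockouts. The means were 88.5 ± 8.26% in knockouts and 94.9 ± 5.38% in controls (SD, n = 4 each). The difference was -6.47 points with a 95% interval of -19.6 to 11.8 (exact two-sided permutation test, p = 0.229, on 54 to 516 reads per mouse summed over the 3 CpGs). It was -3.79 points without knockout 28, -10.3 points without knockout 45 and -2.33 points over all kept CpGs. The CpG 11002 bp after the start read 0% in all 7 mice that had it, on 19 to 93 reads, while the other CpGs around it averaged between 55.9% and 96.6% in each group. Over the 8 mice, the gene regions whose levels followed that of Slamf1 most closely among 16731 genes were those of Mfsd4b5, Gli3 and Btla, with Pearson correlations of 0.96, 0.948 and 0.938, given as a description over 8 shared libraries.

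Flt3 had the narrowest range of the methylated regions, 1.01 points. Its 61 CpGs averaged 20.5%, 20.6%, 20.3% and 20.1% in knockout mice 25, 28, 45 and 46, against 21.1%, 21%, 20.4% and 21.1% in control mice 1, 34, 36 and 37. The means were 20.4 ± 0.213% in knockouts and 20.9 ± 0.333% in controls (SD, n = 4 each), a difference of -0.518 points with a 95% interval of -1.01 to 0.189 (exact two-sided permutation test, p = 0.0857). The groups overlapped through control 36 alone. The difference was -0.811 points with a coverage minimum of 20 reads (exact permutation test, p = 0.0286) and 0.212 points with reads summed over CpGs, so that its sign and its side of the threshold rested on the processing. In the body of Flt3 alone, 28 CpGs averaged 44.1 ± 0.407% in knockouts and 45.3 ± 0.74% in controls (SD, n = 4 each; exact permutation test, p = 0.0857).

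The flanks and bodies of the remaining genes overlapped between the groups as well. In the Kit body, 32 CpGs averaged 70.7 ± 3.22% in knockouts and 67.3 ± 3.54% in controls (SD, n = 4 each). The 7 CpGs upstream of Cd48 averaged 92.4 ± 2.74% in knockouts and 94.1 ± 3.16% in controls (SD, n = 4 each). Procr was methylated on both sides of its start: 5 CpGs of the body averaged 96.3 ± 1.57% in knockouts and 95.5 ± 1.64% in controls, and 4 CpGs upstream averaged 79.8 ± 11.4% in knockouts and 73.7 ± 2.16% in controls (SD, n = 4 each). The wide spread of the upstream CpGs in knockouts came from mouse 28, at 96.5%, the other knockouts being at 71% to 76.5%.

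Vwf had no CpG at the gene end taken as its start, and its strand was not in the tables used here. Its body held CpGs at every level. A stretch of 23 CpGs, 50247 to 50940 bp from the lower-coordinate end, averaged 2.23 ± 1.49% in knockouts and 1.31 ± 0.515% in controls (SD, n = 4 each), and 4 CpGs at 20274 to 20462 bp averaged 0.145% in knockout 25 and 0% in every other mouse. The 83 CpGs of the body as a whole averaged 65 ± 1.76% in knockouts and 64 ± 2.66% in controls (SD, n = 4 each). The 3 CpGs above the upper end, a flank that the RefSeq interval of Ano2 overlaps, averaged 53.3 ± 6.44% in knockouts and 61.5 ± 16.2% in controls (SD, n = 4 each), with control 34 at 37.8% and the other controls at 66.2% to 74.2%.

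Summed into 1 kb windows of at least 3 CpGs, the genes gave 27 windows, of which 8 were under 5% and 13 over 80%. In Kit they ran from the window at 75575001, at 0.143 ± 0.215% in knockouts and 0.0884 ± 0.11% in controls, to that at 75629001, at 99.8 ± 0.379% in knockouts and 98.1 ± 2.48% in controls (SD, n = 4 each). In Flt3 they ran from the unmethylated body stretch given above to the window at 147369001, at 93.6 ± 2.44% in knockouts and 98.1 ± 1.83% in controls (SD, n = 4 each; exact permutation test, p = 0.0571), which was outside the tested range of levels. The lowest and highest windows of Vwf were those at 125603001, at 2.28 ± 1.5% in knockouts and 1.28 ± 0.459% in controls, and at 125567001, at 98.3 ± 3.31% in knockouts and 97.7 ± 1.94% in controls (SD, n = 4 each). For Procr they were the start at 0% and the window at 155754001, at 95.3 ± 1.96% in knockouts and 94.6 ± 1.73% in controls (SD, n = 4 each). Cd48 had 2 windows, the start and the upstream flank already given, Cd34 had its start only, and Slamf1, Tek and Ly6a had none.

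Of the 12 windows in the tested range, 0 were called at an adjusted p under 0.05 in the moderated quasi-binomial model, as were 0 of 40477 windows over the autosomes (0%), and limma called 0. At an unadjusted p under 0.05 the markers had 0 of 12 in either tool, against 6.53% of all windows. The 6 windows with the smallest p had adjusted p between 0.769 and 0.89 in the same model: those at 125649001, 125690001, 125595001 and 125596001 in Vwf, at 75628001 in Kit and at 171679001 in Cd48. For the first of them, the means were 61.8 ± 5% in knockouts and 61.4 ± 18.1% in controls (SD, n = 4 each), with control 34 at 34.4% and every other mouse at 55.3% or more. For the Kit window they were 59.9 ± 5.02% in knockouts and 52.4 ± 8.92% in controls (SD, n = 4 each). The groups did not overlap in 0 of the 12 windows, against 3.36% of all tested windows.

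CpG by CpG, none of the 97 tested sites was called: the smallest adjusted p in the moderated quasi-binomial model was 0.739, and over the autosomes 23 of 313039 CpGs were called (0.00735%). limma called 0 of the 97. At an unadjusted p under 0.05 stood 8 of the 97 (8.25%), against 6.52% of all tested CpGs. In limma the count was 10 (10.3%), against 5.02% of all. Of the 8, 7 were lower and 1 higher in knockouts, where over all tested CpGs 4.12% were lower and 2.4% higher at that p. The 8 were 4 of 12 in Flt3, 3 of 34 in Vwf and 1 of 7 in Cd48, with 0 of 29 in Kit, 0 of 6 in Slamf1, 0 of 5 in Procr and 0 of 2 each in Cd34 and Tek. Counts per gene are small and neighbouring CpGs can share reads, so a contrast between genes cannot be read from them. The count was 3 (3.09%) without control 1 and 3 without control 36, against 5.44% and 5.56% of all CpGs. It was 11 (11.3%) without knockout 25, against 9.35% of all.

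The differences at single CpGs spread somewhat more widely than over all tested CpGs, which was not tested. The median over the 97 was -1.29 points, with the 5th and 95th percentiles at -26.1 and 25.6, against -0.902, -22.5 and 20 over all tested CpGs. Knockouts were below controls at 51 and above at 46. Single CpGs were variable between mice of either genotype: 35.6% of the 736 values were exactly 0% or 100%, against 31.6% over all tested CpGs, and 34% of the CpGs ranged over more than 50 points, against 28%. In Kit, for example, the CpG 14473 bp after the start read 80.8%, 33.9%, 100% and 50% in knockout mice 25, 28, 45 and 46, against 0%, 0%, 0% and 96.2% in control mice 1, 34, 36 and 37, on 10 to 56 reads. Control 37 lay above 3 of the 4 knockouts there, and the adjusted p of the difference was 0.861 in the moderated quasi-binomial model.

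**Figure D3:**
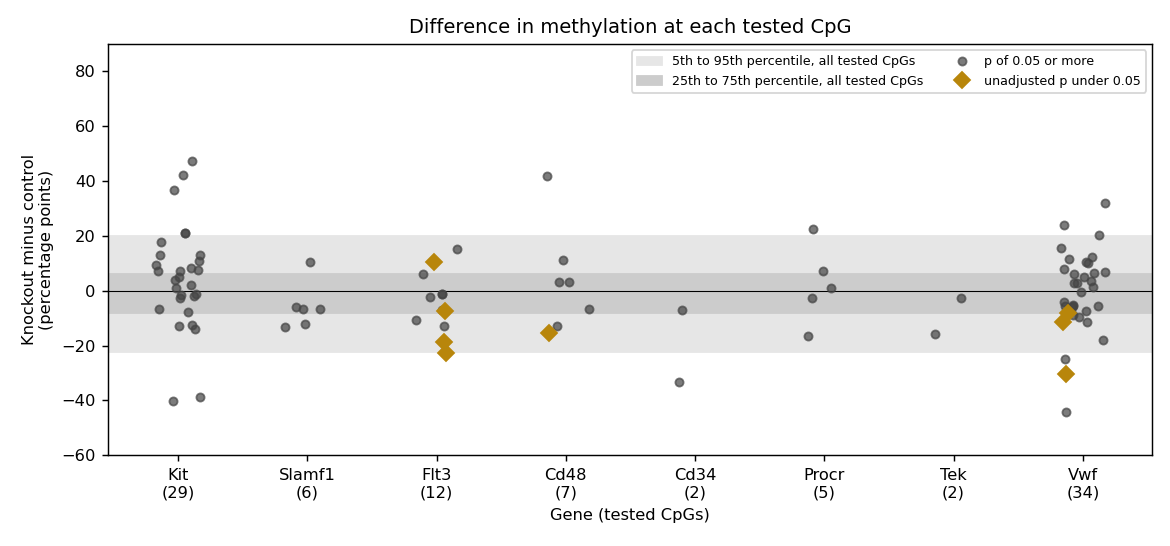
Knockout minus control methylation in percentage points at each of the 97 tested CpGs, by gene, with the 5th to 95th (light grey) and 25th to 75th (dark grey) percentiles of all tested CpGs as bands; gold diamonds have an unadjusted p under 0.05. The diamonds are 4 in Flt3, 3 in Vwf and 1 in Cd48, and 51 of the 97 points lie under 0.

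A pair of CpGs in the Flt3 body had the smallest p of the 97. The CpG at chromosome 5, 147388800, which is 11689 bp after the start, read 64.3%, 64.3% and 79.7% in knockout mice 25, 28 and 46 and had too few reads in knockout 45, against 87.7%, 93.3%, 88.1% and 100% in control mice 1, 34, 36 and 37. Every knockout with a value was below every control. It was the single one of the 97 whose groups did not overlap (1.03%), against 3.11% of all tested CpGs. The means were 69.5 ± 8.87% in 3 knockouts and 92.3 ± 5.74% in 4 controls (SD), a difference of -22.8 points on 178 to 325 reads (moderated quasi-binomial model, p = 0.00777, adjusted p = 0.739; exact permutation test, p = 0.0286, the smallest it can give). Its neighbour nearer to the start, 11577 bp after it, read 17.4%, 7.46%, 0% and 0% in knockout mice 25, 28, 45 and 46, against 32.9%, 26.7%, 30.6% and 9.14% in control mice 1, 34, 36 and 37. Here the groups overlapped through knockout 25 and control 37, and the difference was -18.7 points (moderated quasi-binomial model, adjusted p = 0.749). The CpG between them, 11599 bp after the start, read 66.1%, 75.5%, 83.2% and 70.4% in knockouts, against 78.9%, 93.7%, 79.1% and 85.7% in controls, and the groups overlapped. The 3 CpGs lie within one stretch and can share reads, so they are not independent.

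At the other 6 CpGs the groups overlapped. At Cd48, 2134 bp before the start (chromosome 1, 171679858), the level was 100%, 98.2%, 86.4% and 53.3% in knockout mice 25, 28, 45 and 46, against 100% in each control. At Vwf, the CpG at 125589125 read 100%, 100% and 3.03% in knockout mice 25, 45 and 46, against 93.4% to 100% in controls, with as few as 11 reads, so that knockout 46 alone was low. The CpG at 125649222 read 11.9% to 38.3% in knockouts, against 0% in control 34 and 41.8% to 54.7% in the other controls. The Vwf CpG at 125690319 had a difference of -7.99 points, and the Flt3 CpGs at 147370405 and 147369256 differences of 10.5 and -7.27 points. Their adjusted p in the moderated quasi-binomial model were 0.752, 0.763 and 0.767.

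**Figure D4:**
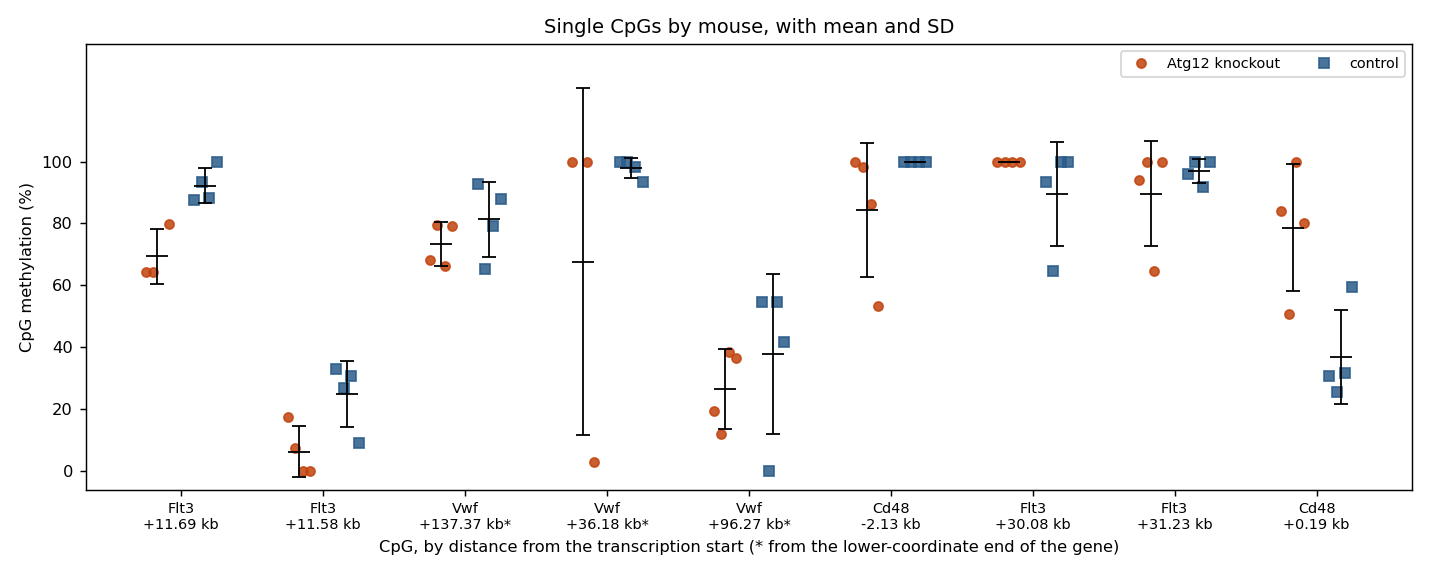
Methylation (%) per mouse at the 8 CpGs with the smallest p and, at the right, the CpG 194 bp after the Cd48 start, in knockout (orange circles) and control mice (blue squares), with the mean and SD as bars; SD bars can pass the limits of the scale. The leftmost Flt3 CpG is the one where the groups lie apart, at 64.3% to 79.7% in knockouts and 87.7% to 100% in controls.

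Genes of the same gate, family and ligands, and markers of the cells that the lineage gate removes, were read at their starts for comparison. Of 60 genes in 10 lists, 23 had a measured start and 18 of these were under 5%. Only 4 were in the tested range, among them the stem cell surface genes Itga2b and Robo4 and the erythropoietin receptor gene Epor, and 0 were called in the moderated quasi-binomial model, against 0 of 1922 gene starts (0%); 0 of the 4 had an unadjusted p under 0.05, against 6.19% of all, and limma called 0 starts. The median difference of the 23 starts was 0.0554 points, against -0.00206 over all 13427 measured starts. Among the other surface genes of blood stem cells, 11 of 16 were measured and 9 were under 5%. None of the 7 other SLAM family genes had a measured start.

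The largest difference at a list gene's start was at Epor, which read 24%, 6.73%, 66.7% and 9.26% in knockout mice 25, 28, 45 and 46, against 18.3%, 20.5%, 23.3% and 10.5% in control mice 1, 34, 36 and 37, a difference of 8.53 points in which knockout 45 alone was high. Of the lists for other cell types, the measured starts were 2 of 7 for T cells, 2 of 4 for B cells, 1 of 8 for myeloid cells, 2 of 5 for erythroid cells, 1 of 3 for megakaryocytes, 1 of 3 for endothelium and 0 of 2 for lymphoid progenitors. At the start of Cd14, a monocyte receptor gene chosen after its values were seen, 6 CpGs read 0% in each knockout, against 0.0664%, 0.0797%, 0.204% and 1.79% in control mice 1, 34, 36 and 37, which was under the tested range of levels (exact permutation test, p = 0.0286). That p is the smallest this test can give, and all levels lay at or near 0%. The share of starts over all genes whose groups do not overlap is not given, so no difference is read from Cd14.

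Over whole genes with their flanks, 49 of the 60 list genes had a value and 40 were in the tested range. In the moderated quasi-binomial model 0 were called and 2 had an unadjusted p under 0.05 (5%), against 2.59% of all regions, and the groups did not overlap at 2 (5%), against 2.77%. The 2.59% depended on single mice, as given above. The genes named here were chosen after their values were seen. Cd2, a T cell adhesion receptor gene, read 71.3%, 85.2%, 66.2% and 85.9% in knockout mice 25, 28, 45 and 46, against 89.9%, 97.3%, 92.2% and 90.4% in control mice 1, 34, 36 and 37, over 4 CpGs. Every knockout was below every control, with means of 77.1 ± 9.91% in knockouts and 92.4 ± 3.36% in controls (SD, n = 4 each) and a difference of -15.3 points (unadjusted p = 0.0407 and adjusted p = 1 in the moderated quasi-binomial model; exact permutation test, p = 0.0286). The groups also lay apart at Itga6, an integrin gene, with 24.7 ± 0.63% in knockouts and 25.4 ± 0.276% in controls (SD, n = 4 each). There the unadjusted p was 0.505 in the moderated quasi-binomial model, against p = 0.0286 in the exact permutation test. Angpt1, which encodes the ligand of Tek, had 50 ± 1.53% in knockouts and 50.7 ± 1.66% in controls (SD, n = 4 each). Its groups overlapped (unadjusted p = 0.0233 and adjusted p = 1 in the moderated quasi-binomial model, exact permutation test p = 0.571). Lineage markers had values for 5 of 7 T cell, 3 of 4 B cell, 7 of 8 myeloid and 3 of 5 erythroid genes. A share of such cells in either group was not tested.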

How the data were processed

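Bisulfite libraries of sorted stem cells from 4 knockout and 4 control mice were compared, each table holding a single mouse. The coverage that the authors deposited counts reads per CpG cytosine and is 10 or more wherever a cytosine is listed. Beside it, per the file headers, stand the authors' percent of C and percent of T among these reads. The submitters' processing notes name CASAVA 1.8.2, Bismark and mm10; how reads were filtered, trimmed or freed of duplicates was not given in the sources used here.

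Reads were recovered from coverage and percent (at least 99.96% of values whole within 0.05 reads in each library), and both strands were added. CpGs with 10 reads in 3 mice of each group were tested singly, and CpGs covered in all 8 mice were summed into 1 kb windows, gene starts (1000 bp on either side) and gene regions (5000 bp flanks) of at least 3 CpGs. Features with a mean level of 5 to 95% entered a quasi-binomial logistic model on genotype, with overdispersion moderated by limma 3.58.1 in R 4.3.3 and not under 1, two-sided, with Benjamini-Hochberg adjustment over all features at 0.05; it was tested on simulated data. Levels per mouse, unweighted over CpGs, entered exact two-sided permutation tests (70 arrangements), which were inverted for the 95% intervals. Starts came from the RefSeq promoter table for 16457 genes and otherwise from the gene end with more CpGs. Exons and introns could not be told apart from these tables.

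The genes and lists were chosen with earlier results of these data known. Named were the 8 CpGs and 6 windows with the smallest p, each gene's highest and lowest window, the 3 genes most like the region of widest range, and the 2 list genes with the largest difference, of which 1 is not reported here. Alternatives were coverage of 20 reads, an upper coverage limit at the 99.9th percentile, CpGs in all 8 mice or all kept CpGs, levels of 1 to 99%, limma on the log2 ratio of methylated to unmethylated reads (1 added to both), summed reads, windows and starts of 500 bp, flanks of 2000 bp, and leaving out mice.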

Additional observations from a re-analysis of the deposited data

Results flagged for a closer look

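Some values lay apart from the other mice of their group by Dixon's criterion for 4 samples (0.829). Chance alone meets it in about 5% of groups where values are independent and normally distributed. Of 56 groups of values examined here, 50 with any spread, 7 met it. These values are percentages, some at the limits of the scale, and some groups were chosen by smallest p or after being seen. The count of 7 therefore cannot be set against that rate. In knockout 25 the Kit start was at 0.31%, the next knockout being at 0.0421%, and the Cd48 CpG at 171682037 was at 10.3%, with the other knockouts at 0%. At that Cd48 CpG the tie of the other knockouts makes any differing value meet the criterion. In knockout 28 the Procr region was at 66.2%, next to 60.4%, the Tek region at 94.1%, next to 87.7%, and the Kit window at 75628001 was the lowest at 52.4%, next to 62%. In knockout 46 the Vwf window at 125595001 was at 80%, next to 98.2%. In control 34 the Vwf window at 125649001 was at 34.4%, next to 67.9%. Knockout 25 and control 34 had the lowest coverage of highly methylated relative to nearly unmethylated CpGs, 0.435 and 0.366, and the part of this in their values was not tested.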

How the results depend on the processing

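No paired analysis was made. The labels used here give a number for each mouse (25, 28, 45 and 46 for knockouts, 1, 34, 36 and 37 for controls) and nothing by which a knockout could be matched to a control. No CpG or window of the marker genes was called at an adjusted p under 0.05 in the moderated quasi-binomial model or in any alternative run, nor was any gene start or region over all genes.

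Over the autosomes the 23 called CpGs were 40 with a coverage minimum of 20 reads, 1 with the upper coverage limit, 0 with limma, 0 with levels of 1 to 99%, 0 without both knockout 25 and control 34, and 0 without any single mouse. Called windows, 0 in the main model, were 8 without both these mice, 6 with levels of 1 to 99%, and 0 to 33 with 1 mouse left out, 33 without control 34 and 11 without knockout 45. Marker CpGs at an unadjusted p under 0.05, 8 in the main model, were 13 without both mice (13.4%, against 10.4% of all CpGs), 16 of 176 with levels of 1 to 99% (9.09%, against 8.89%), 5 of 65 over CpGs covered in all 8 mice (7.69%, against 6.33%) and 3 to 11 with 1 mouse left out, where all CpGs ran from 5.44% to 9.35%. Marker windows at that p, 0 of 12 in the main model, were 2 without both mice, 2 of 21 with levels of 1 to 99%, 1 of 17 with all kept CpGs and 0 to 2 with 1 mouse left out, while the share over all windows ran from 4.53% to 8.28%.

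The 12 level differences were recomputed in 178 settings, of which 154 kept the sign and the side of the threshold, 22 turned the sign and 2 passed the threshold. The 154 include settings that could not come out otherwise. The setting of CpGs covered in every mouse repeated the main values, since starts and regions already used such CpGs. The Procr start had no methylated read in any mouse. Without both knockout 25 and control 34 the smallest p the exact test can give is 0.1, so that setting could not pass the threshold. With reads summed over CpGs, differences in percentage points were 0.0127 at the Kit start, 0.00803 at the Cd34 start, and over regions -0.242 for Kit, -3.22 for Cd48, 0.212 for Flt3, -3.5 for Procr, -0.492 for Tek and -5.31 for Vwf. Over all kept CpGs they were -0.0811 at the Flt3 start and -1.16 over Tek. With 20 reads they were -0.0332 over Kit and -0.811 over Flt3. Without both knockout 25 and control 34 they were 0.0784 at the Cd34 start and -0.78 over Vwf. With 1 mouse left out they ranged from -0.00741 to 0.119 at the Flt3 start, -0.086 to 0.0586 at the Cd34 start, -0.682 to -0.429 over Flt3, past the threshold without control 36, -1.32 to 2.41 over Tek and -0.800 to 1.6 over Vwf. The cause of these shifts was not tested. A minimum of 20 reads left too few CpGs at the Procr start and over Slamf1.

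Few CpGs limit what is shown at Slamf1, Tek and the Cd48 start, and Sca-1 cannot be read here at all. Single CpGs varied between mice at these depths, and 4 mice a group leave intervals of several points for most regions.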
